A study of Mus musculus with 3 samples.

Results

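Among the H3K27ac summits of old hematopoietic stem cells, 5413 lay in a gap of H3K4me1 with called H3K4me1 on both sides. They were taken from the 92455 H3K27ac peaks on chromosomes 1 to 19 (93413 peaks in all). They were chosen by where the summits of 1 mark and the peaks of the other had been called. The summit lay in no H3K4me1 peak, and the positions 1 kb to its left and 1 kb to its right each lay inside one. Left and right are those of the reference sequence, since peaks have no strand. The gap between the nearest H3K4me1 peaks around such a summit is called a valley here. The valleys number 5322, because 91 of them held a pair of such summits.

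H3K4me1, the monomethylation of lysine 4 of histone H3, marks enhancers and the shoulders of active promoters. H3K27ac, the acetylation of lysine 27 of the same histone, marks promoters and enhancers in use. Active regulatory elements are known for a central stretch with few nucleosomes or with other methylation states, and at active promoters trimethylated H3K4 takes the centre and H3K4me1 lies to the sides. A gap of H3K4me1 around an acetylated centre is therefore a familiar arrangement of active elements, although the present lists do not tell promoters from enhancers.

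The marks were mapped by chromatin immunoprecipitation and sequencing in bone marrow stem cells sorted as SP-KSL-CD150+ from C57BL/6 mice aged 24 months, as part of work on long non-coding RNAs. There were 3 libraries, for H3K27ac (antibody Abcam ab4729), for H3K4me1 (Abcam ab8895) and of input DNA, and the input was not analysed here. Each ChIP used 50000 to 100000 cells, and the labels do not say whether animals were pooled. All libraries are described as technical replicates of biological replicate 1, so the spread between replicates is unknown and no p-values appear. Intervals of shares are exact Clopper-Pearson 95% intervals. They describe counting error alone: the reads carry no molecular identifiers, so they need not be separate molecules, and peaks close to each other are not independent. Coordinates are those of mouse build mm9. No gene positions or sequence of that build were used here, so the summits are named by position, no gene or sequence is given for them, and the labelled cell type was not checked against marker genes.

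Depth was moderate. A summit in a valley held a median of 32 H3K27ac reads (quartiles 18 and 47), where the median over all autosomal H3K27ac summits was 13 reads and the weakest held 8. In the H3K27ac library the genome-wide background stood at 2.38 reads, and in the H3K4me1 library at 3.75. A gap means that no H3K4me1 peak was called there, not that the mark was absent, and the shortest gap between any H3K4me1 peaks in the list was 197 bp.

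Valley summits were mostly stronger, and their peaks wider, than acetylated sites of these cells in general. Enrichment is given as the authors' fold, the pileup at the summit over the local background. It was not used to choose the summits, but it comes from the same peak calls. The median fold was 9.38 in valleys (quartiles 5.32 and 13.9, lowest 2.24, highest 40.8), against 3.84 over all autosomal H3K27ac peaks (quartiles 3.25 and 5.32), a ratio of 2.44. Of the 5413 valley summits, 2501 (46.2%, interval 44.9 to 47.5%) reached 10-fold, where 7.75% of all autosomal peaks did. A further limit of 20-fold was reached by 408 of them (7.54%), where 1.07% of all autosomal peaks did. At the other end 814 (15.0%) stayed below 4-fold, against 51.7% of all autosomal peaks. The median valley peak was 1067 bp wide (quartiles 562 and 1628 bp), and 2907 of them (53.7%) were 1 kb or wider, where 15.2% of all autosomal peaks were. At like fold the widths differed less. From 10-fold to 20-fold the median was 1491 bp in valleys and 1538 bp over all autosomal peaks. At 20-fold or more these medians were 1905 and 1987 bp. From 4-fold to 6-fold the valley peaks were the wider, at 525 against 424 bp.

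Other arrangements of the marks gave weaker summits. The 11023 summits outside H3K4me1 with H3K4me1 at 1 kb on 1 side only had a median fold of 4.14 (quartiles 3.25 and 8.59) and were 402 bp wide at the median. The 21810 summits that lay inside H3K4me1 and had it at 1 kb on both sides, called covered summits below, had a median fold of 4.43 (quartiles 3.55 and 5.66) and were 487 bp wide at the median. The 21980 summits with H3K4me1 at none of the 3 positions had a median fold of 3.42 (quartiles 2.95 and 3.84) and a width of 253 bp. The upper quartile of the summits flanked on 1 side reached into the range of the valleys, with 21.3% at 10-fold or more.

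**Figure D1:**
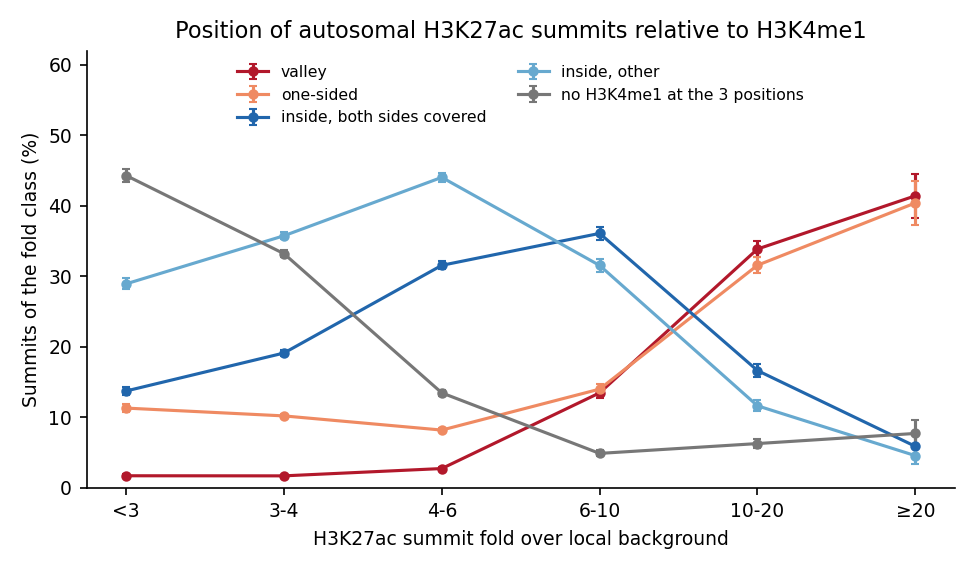
Share of autosomal H3K27ac summits (vertical axis, percent of the fold class, bars are exact 95% intervals) in each arrangement with H3K4me1, by class of H3K27ac fold (horizontal axis). The valley line stays between 1.70 and 2.74% up to 6-fold, then passes 13.5% and 33.9% on the way to the highest class.

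The share of summits in valleys was low and flat among weak peaks and high among strong ones, as the plot of arrangements by fold class shows. It was 1.70% from 3-fold to 4-fold (591 of 34793), 2.74% from 4-fold to 6-fold (752 of 27485), 13.5% from 6-fold to 10-fold (1346 of 9991) and 33.9% from 10-fold to 20-fold (2093 of 6179, interval 32.7 to 35.1%). Covered summits followed another course, with their highest share, 36.1%, from 6-fold to 10-fold and 5.89% at 20-fold or more. Flanking on 1 side had nearly the same shares as the valleys above 6-fold, at 14.0%, 31.6% and 40.4% in the last 3 classes. Of the summits outside H3K4me1, the valley share was 41.6% from 6-fold to 10-fold, 47.2% from 10-fold to 20-fold and 46.3% (interval 42.9 to 49.6%) at 20-fold or more. Above 6-fold these shares thus stayed between 41.6 and 47.2%, while below 4-fold they were 3.76% or less. Among the 100 autosomal summits of highest fold 43 lay in valleys, and among the first 5000 the share was 38.3%.

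The 10 valley summits of highest fold had a common shape. Their acetylated peaks ran from 859 to 5035 bp, and in 9 of the 10 the H3K27ac peak crossed the whole valley and entered both flanks. The first, on chromosome 3 from 132345599 to 132347992 (40.8-fold, 137 reads at the summit), had a valley of 1208 bp between H3K4me1 flanks of 10.01-fold on the left and 4.84-fold on the right. The second, on chromosome 2 from 91549645 to 91552027 (39.0-fold, 131 reads), had a valley of 1384 bp and flanks of 9.27-fold and 5.90-fold. The third, on chromosome 2 from 164735859 to 164738068, had the same 39.0-fold and 131 reads, and its summit was 975 bp from the left flank but 392 bp from the right one. These first peaks were thus acetylated across a stretch of more than 2 kb, with an interrupted H3K4me1 signal underneath.

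The next in rank showed how unlike the flanks of 1 valley could be. The fourth lay on chromosome 9 from 119230620 to 119232702 (36.3-fold, valley of 1410 bp) and the fifth on chromosome 11 from 59622211 to 59624117 (36.0-fold, valley of 957 bp, the only H3K27ac peak of its domain). The sixth, on chromosome 14 from 79986308 to 79988187 (35.5-fold), had a left flank of 603 bp and 4.63-fold and a right flank of 2418 bp and 8.63-fold, and it was the strongest of 26 H3K27ac peaks joined into 1 domain. The seventh, on chromosome 11 from 68886601 to 68887459 (34.6-fold), was the exception in shape, with a peak of 859 bp that covered 85.0% of a valley of 707 bp and did not reach the left flank. It also had the most unequal flanks of the 10, at 7.79-fold and 2.72-fold. The eighth, on chromosome 12 from 111722061 to 111727095, was the widest of the 10 at 5035 bp, with flanks of 4.08-fold and 9.06-fold. The last of the 10 lay on chromosome 17 from 17510240 to 17512331 and on chromosome 6 from 86387434 to 86389587, both at 34.3-fold, with valleys of 1400 and 1546 bp. Each of the 10 was the strongest or the only peak of its domain, and none had a raised local background. Both traits depend on fold, by which the 10 were picked. In domains of more than 1 peak, 96.8% of all valley summits at 20-fold or more had the highest fold. For summits of that class with H3K4me1 at 1 kb on 1 side only, the share was 94.2%.

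**Figure D2:**
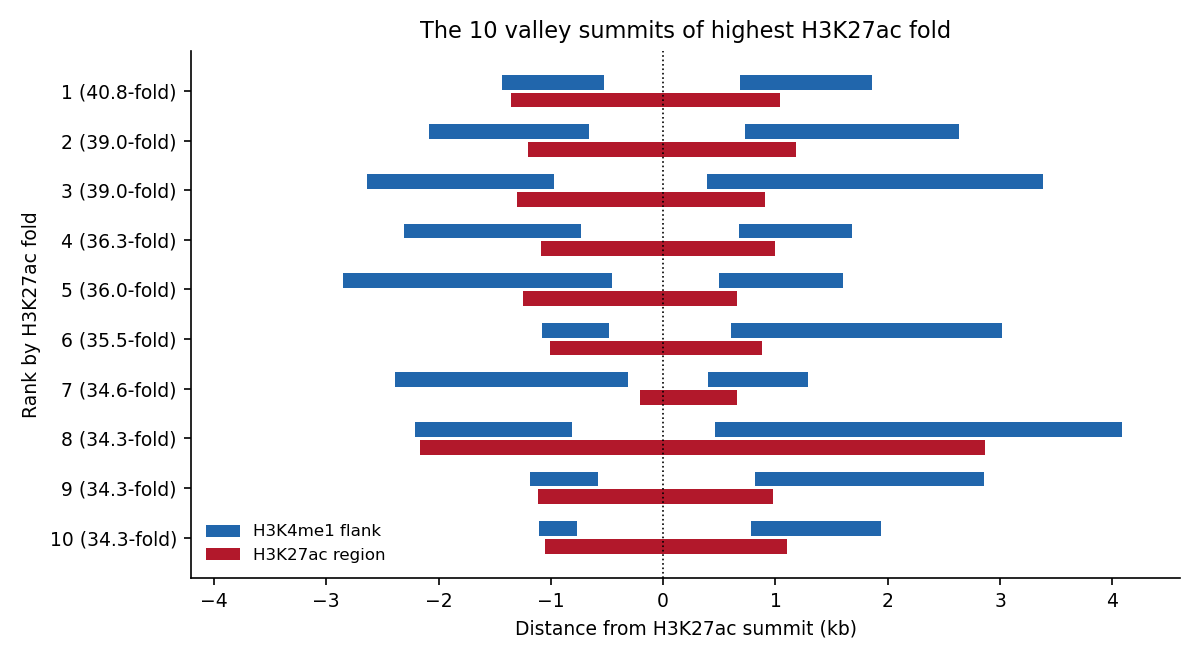
Map of the 10 valley summits of highest H3K27ac fold (vertical axis, by rank, with the fold), with distance from the H3K27ac summit in kb on the horizontal axis. Red bars are the called H3K27ac region and blue bars the called H3K4me1 regions that hold the positions 1 kb to each side, and the red bar passes the inner ends of both blue bars in every row but the seventh.

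The length of a valley and the place of the summit in it were limited by the rule. Each flank must begin within 1 kb of the summit, so these values are a description only. The length and positions that unrelated distances within that range would give were not computed. The median valley was 969 bp long (quartiles 734 and 1204 bp, shortest 197 bp, longest 1940 bp), 517 of the summits (9.55%) had a valley of 500 bp or less, and 371 (6.85%) had one over 1500 bp. The position of the summit, as a share of the valley's length counted from the left, had quartiles of 0.337 and 0.656. In 855 of them (15.8%) the summit was within 100 bp of a flank. Between the summit and a position at 1 kb, 321 summits (5.93%) had a further H3K4me1 peak, which then formed the edge of the valley.

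Longer valleys went with stronger acetylation. The median valley was 725 bp for summits below 3-fold, 828 bp from 3-fold to 4-fold, 861 bp from 4-fold to 6-fold, 913 bp from 6-fold to 10-fold, 1052 bp from 10-fold to 20-fold and 1173 bp at 20-fold or more (quartiles 969 and 1402 bp). Across the 5413 summits H3K27ac fold and valley length correlated with r = 0.319 (Pearson) and rho = 0.318 (Spearman), which describes sites that share 1 pair of libraries and was not tested. The value moved with the distance in the rule, which bounds the length: rho was 0.196 with H3K4me1 asked for at 1500 bp and 0.414 at 500 bp. Both settings were planned, but the correlation was recomputed in them after seeing the data. The spread within classes was wide, and the quartile range below 3-fold (358 to 1098 bp) overlapped that of each higher class.

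**Figure D3:**
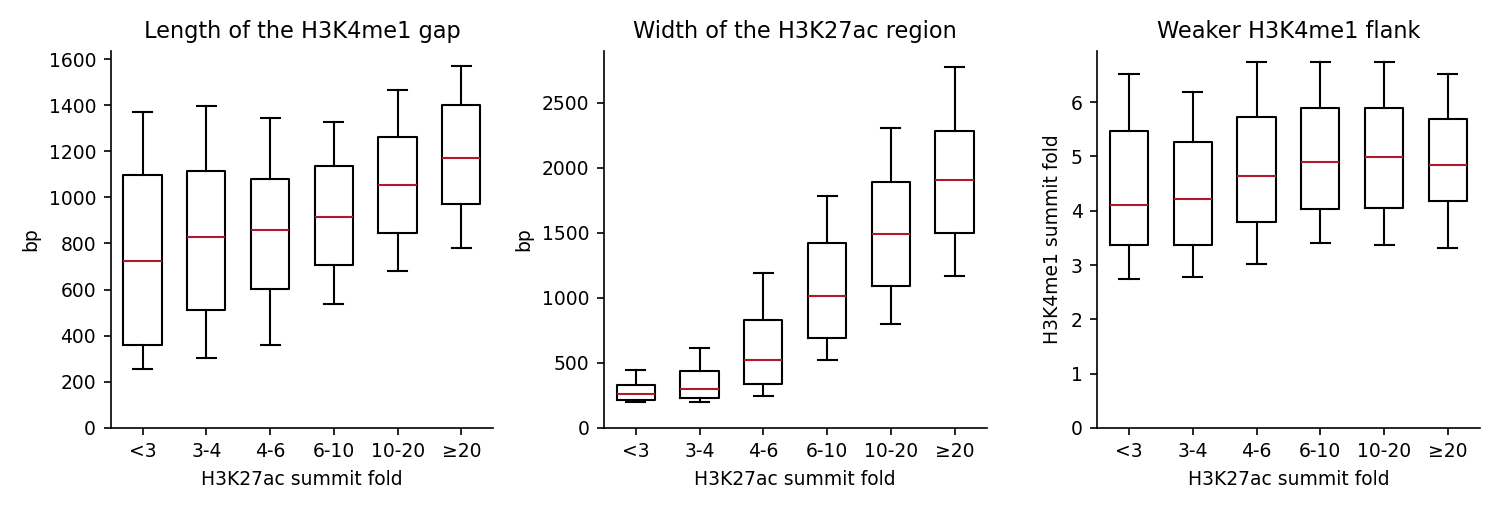
Valley length in bp, width of the H3K27ac region in bp and H3K4me1 fold of the weaker flank (vertical axes) for valley summits by class of H3K27ac fold (horizontal axes). Lines are medians, boxes quartiles and whiskers the 10th and 90th percentiles over summits. Medians of the first panel run from 725 to 1173 bp and of the second from 259 to 1905 bp, while those of the third stay between 4.11 and 4.98.

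Acetylation commonly ran into at least 1 flank, but it filled the whole valley at a minority of summits, 2119 of 5413 (39.1%). The H3K27ac peak covered a median of 78.9% of the valley (quartiles 49.0 and 100%). It entered both flanks at 2111 summits (39.0%, interval 37.7 to 40.3%), 1 flank at 2321 (42.9%) and none at 981 (18.1%). A median of 33.4% of the peak's width lay outside the valley. This differed widely with fold: both flanks were entered by 4.23% of peaks from 3-fold to 4-fold, 34.1% from 6-fold to 10-fold, 57.7% from 10-fold to 20-fold and 71.8% (293 of 408, interval 67.2 to 76.1%) at 20-fold or more. Peaks wholly within the valley made up 53.4% of those below 3-fold and 1.23% (5 of 408) of those at 20-fold or more. Fold and peak width went together across valley summits (Spearman rho of 0.740), and the part of width in these shares was not tested.

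Where the acetylated peak entered 1 flank only, it was mostly the nearer one. Of 2319 such peaks with unequal distances, 1947 (84.0%, interval 82.4 to 85.4%) entered the flank nearer to the summit. The entered flank was the wider of the pair in 1597 of 2319 (68.9%) and the one of higher H3K4me1 fold in 1413 of 2294 (61.6%, interval 59.6 to 63.6%). Over all 5348 summits with unequal arms and unequal flanks, the longer arm of the H3K27ac peak pointed to the stronger flank in 52.8% (interval 51.5 to 54.2%), close to an even split. A nearer flank is also reached by a shorter arm, so the 84.0% follows in part from geometry. Since a flank must hold the position at 1 kb, a nearer one also tends to be wider. The shares of 68.9% and 61.6% were not separated from this.

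The flanks were stronger and wider than H3K4me1 peaks in general and close in strength to those that met H3K27ac. A flank had to hold a position 1 kb from a summit, which favours wide peaks. The greater width is thus in part set by the rule, and the part of width in the fold was not tested. The 10534 H3K4me1 peaks that flanked a valley were 6.93% of the autosomal list, and 116 of them flanked more than 1 valley. Their median fold was 5.74 (quartiles 4.58 and 7.01) and their median width 1264 bp (quartiles 824 and 2065 bp). Over all 151952 autosomal H3K4me1 peaks the median fold was 4.21 (quartiles 3.16 and 5.69) and the median width 694 bp, and at 3584 of the 5413 summits (66.2%) both flanks were above that median fold. The 43230 other autosomal H3K4me1 peaks that met an H3K27ac peak had a median fold of 5.69 (quartiles 4.21 and 7.16) and were 1407 bp wide at the median. The H3K4me1 peaks around covered summits were stronger and wider, at a median of 7.37-fold and 3259 bp. Their width is in part set by having to reach the summit. The nearest comparison, the flank of summits flanked on 1 side, had a median of 5.48-fold and 1293 bp.

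Strength of acetylation and strength of the flanks were nearly unrelated. The weaker flank had a median of 4.84-fold and the stronger one 6.74-fold. At 20-fold or more these medians were 4.84 and 6.95, and below 3-fold they were 4.11 and 6.73. Across summits the H3K27ac fold and the fold of the weaker flank had a Spearman rho of 0.128, and with the stronger flank a rho of 0.0384. The left and the right flank of a valley were no more alike, with rho = 0.0109 (Spearman) and r = 0.0271 (Pearson) between their folds, and a rho of 0.0282 over the 1670 summits with no raised background at summit or flanks. Flank folds were within 1.5 times of each other at 3466 summits (64.0%) and 2 times apart or more at 670 (12.4%). The median ratio of the wider to the narrower flank was 2.10. Neither side was favoured, since the left flank was the stronger at 48.8% of summits (interval 47.5 to 50.1%) and the wider at 49.7%.

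The 5 valleys with the strongest flanks held acetylation from 4.43-fold to 12.8-fold. The valley whose weaker flank had the highest H3K4me1 fold lay on chromosome 14 from 26326993 to 26327630, between flanks of 12.0-fold and 13.7-fold that were 40114 and 19048 bp wide. Its H3K27ac peak reached 4.43-fold with 16 reads and was 1 of 69 in its domain. The next were valleys on chromosome 5 from 122286040 to 122287265 (10.9-fold H3K27ac, flanks of 12.6-fold and 11.4-fold), on chromosome 6 from 125299492 to 125301008 (12.8-fold, flanks of 10.7-fold and 11.2-fold) and on chromosome 6 from 29161964 to 29162397 (9.75-fold, flanks of 12.0-fold and 10.5-fold). The fifth, on chromosome 11 from 60084740 to 60085543, held an H3K27ac peak of 346 bp and 5.80-fold. Its left flank had 11.0-fold, but a further H3K4me1 peak formed its right edge, and the right flank of 10.5-fold at 1 kb began beyond that at 60086439. Of these 5, 1 was the strongest peak of its domain.

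Away from the summit, H3K4me1 was less extensive around valleys than around covered summits. At 2 kb a called H3K4me1 region was present on both sides of 23.6% of valley summits, 12.4% of summits flanked on 1 side and 48.0% of covered summits. At 5 kb these shares were 8.66%, 7.19% and 27.3%, and at 10 kb 5.82%, 5.54% and 19.3%. The valley and 1-side shares thus came together with distance, while the covered summits stayed apart. The span from the outer end of the left flank to the outer end of the right flank had a median of 3864 bp (quartiles 3064 and 5186 bp). H3K27ac was called more often around valleys close to the summit. The shares at 500 bp on both sides were 40.1% for valley summits, 16.7% for covered ones and 16.2% for flanking on 1 side. Among valley summits the share at 500 bp ran from 0.897% below 3-fold to 81.1% at 20-fold or more. The part of fold in the difference was not tested. At 2 kb on both sides the shares were 1.92% for valley summits, 9.34% for covered ones and 2.03% for flanking on 1 side.

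**Figure D4:**
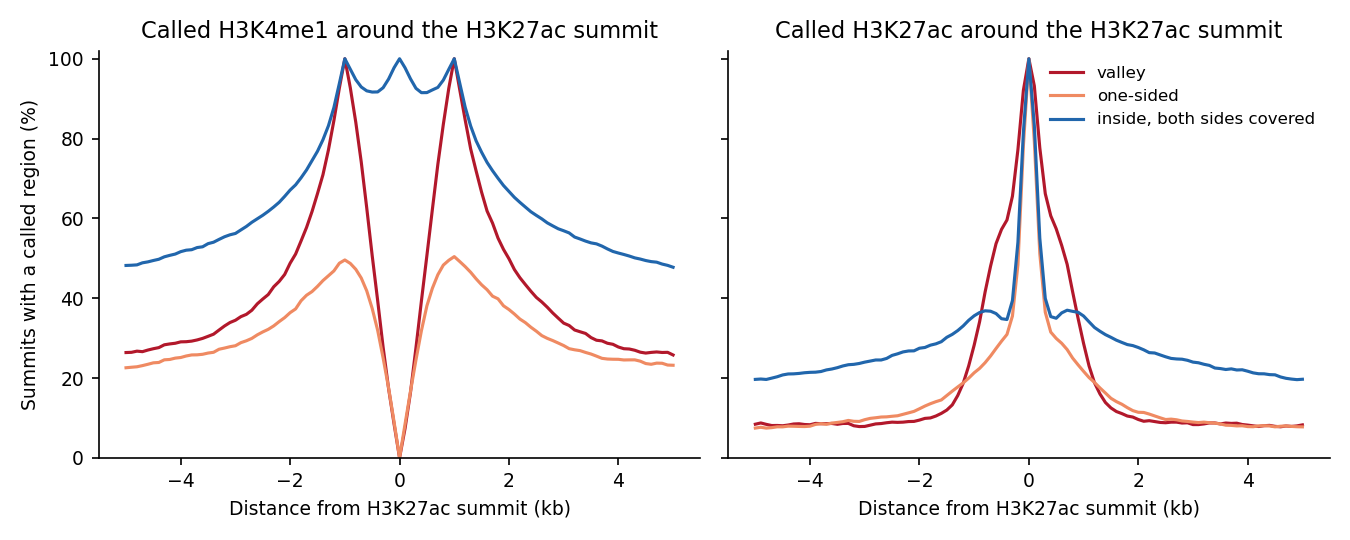
Share of summits (vertical axis, percent) with a called H3K4me1 region (left) or H3K27ac region (right) at each distance from the H3K27ac summit in kb (horizontal axis), for valley summits, summits flanked on 1 side and covered summits. The values at 0 and at 1 kb on each side are fixed by how the summits were chosen. At 5 kb to the left H3K4me1 is called at 26.4% of valley summits and 48.2% of covered ones.

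Strong valley summits rarely had a stronger acetylated summit near them, and weak ones mostly did. A stronger H3K27ac summit lay within 5 kb of 1278 valley summits (23.6%), where it did for 43.8% of all autosomal summits and 63.5% of covered ones. A lower peak has more peaks above it, so the classes of fold were set side by side. From 10-fold to 20-fold the share was 3.68% in valleys (interval 2.91 to 4.58%), 6.71% for summits flanked on 1 side (5.64 to 7.92%) and 8.37% for covered summits. Below 3-fold it was 88.3% in valleys (197 of 223, interval 83.4 to 92.2%), 70.2% for summits flanked on 1 side and 90.3% for covered summits, with 55.7% over all autosomal summits of that class. At 20-fold or more it was 0.980% in valleys (4 of 408), where all autosomal summits gave 0.711% and summits flanked on 1 side 0.503%. The low share at that fold was thus not particular to valleys. From 10-fold to 20-fold, covered summits had a median of 2 other H3K27ac summits within 5 kb. Valley summits and those flanked on 1 side had a median of 1. The part of these numbers in the shares was not tested.

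A high share among weak summits was not particular to valleys. From 3-fold to 4-fold a stronger summit lay within 5 kb of 77.8% of valley summits and 84.6% of covered ones. The share was 62.2% for summits flanked on 1 side and 56.7% for other summits inside H3K4me1. It was 25.8% for those with H3K4me1 at none of the 3 positions. Of the 814 valley summits below 4-fold, 657 (80.7%) had a stronger summit within 5 kb. The strongest such neighbour had a median of 5.61-fold (quartiles 4.43 and 7.68) at a median distance of 2217 bp (quartiles 1264 and 3509 bp), and 100 of the 657 reached 10-fold. It was a covered summit in 264 cases, another summit inside H3K4me1 in 285 and a summit flanked on 1 side in 47. In 45 cases it was a valley summit and in 16 one with H3K4me1 at none of the 3 positions. Of all 92455 autosomal summits these arrangements held 21810, 32229, 11023, 5413 and 21980, in the same order. Of the 657 neighbours, 26 lay in the same valley as the weak summit. The local background, by which fold is divided, was over 5% above the genome-wide level at 54.3% of valley summits below 3-fold, 34.5% from 3-fold to 4-fold and 9.07% at 20-fold or more. Over all valley summits it was that high at 1077 (19.9%), against 26.4% of all autosomal ones. A raised divisor lowers the fold, so the high shares in the lowest classes are in part set by construction. The part of this background in the weak summits was not tested.

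**Figure D5:**
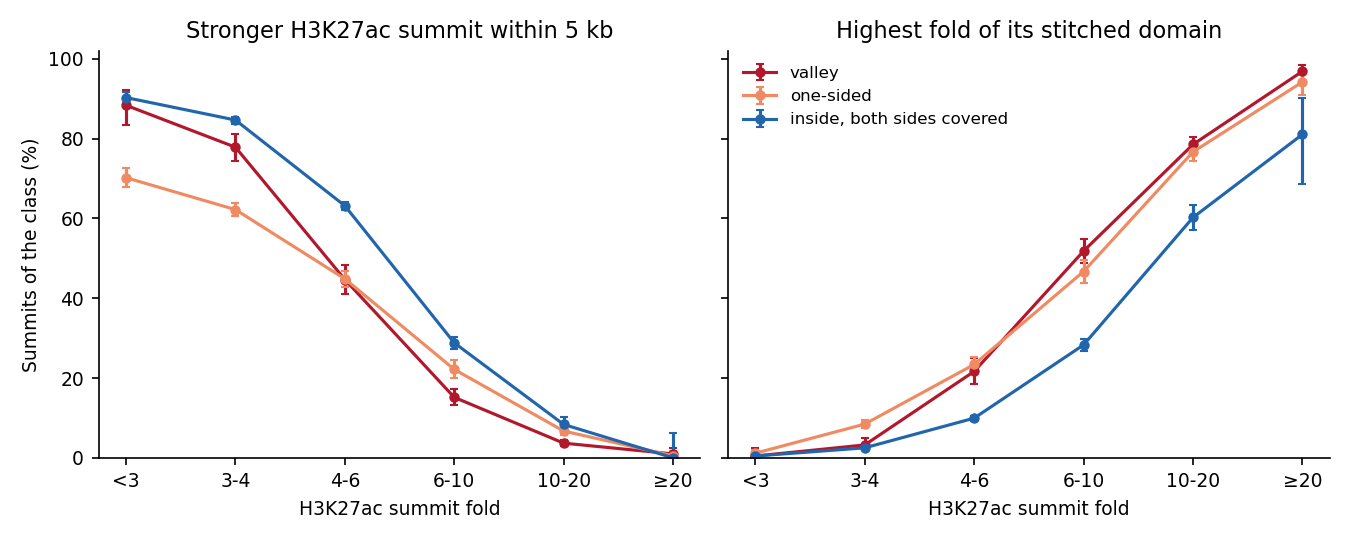
Share of summits (vertical axis, percent, bars are exact 95% intervals) with a stronger H3K27ac summit within 5 kb (left), and share that had the highest fold of their stitched domain among domains of at least 2 peaks (right), by class of H3K27ac fold (horizontal axes). In the left panel valley summits lie nearer to the covered ones below 4-fold and below both other groups from 6-fold to 20-fold, and in the right panel they lie with the covered ones below 4-fold (3.23 and 2.50% from 3-fold to 4-fold) and near the summits flanked on 1 side above it.

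Within domains, valley summits were often the highest point. H3K27ac peaks up to 12500 bp apart were joined into 30221 domains, and 4514 of these held a valley summit. The valley summit was the only peak of its domain in 832 cases (15.4%), as for 15.7% of all autosomal peaks. Among the 4581 valley summits in domains of more than 1 peak, 2373 (51.8%, interval 50.3 to 53.3%) had the highest fold there, where 20.4% of all such autosomal peaks did. At 10-fold or more, 2135 of 2501 valley summits (85.4%, interval 83.9 to 86.7%) were the only or the highest peak of their domain. All autosomal peaks of 10-fold or more gave 80.0%, summits flanked on 1 side 84.5% (interval 83.0 to 85.9%) and covered summits 62.4% (interval 59.5 to 65.3%).

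The largest acetylated domains held a smaller share of the valley summits than of all peaks. The 302 domains of largest acetylated length, the top 1%, contained 395 valley summits (7.30%, interval 6.62 to 8.02%), where they contained 11.3% of all autosomal peaks and 25.5% of the covered ones. These 395 lay in 204 of the 302 domains, had a median of 5.32-fold, and 56 of them were the highest point of their domain. By fold, the share of valley summits in such domains was 16.6% below 3-fold and 4.25% from 10-fold to 20-fold. The corresponding shares of covered summits were 22.6% and 28.6%. The low share was not particular to valleys, since summits flanked on 1 side gave 7.58% (interval 7.10 to 8.09%) in all and 5.48% from 10-fold to 20-fold, and summits with none at the 3 positions 3.86%.

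Within the higher classes of fold, valley peaks were narrower than covered peaks. From 10-fold to 20-fold the median width was 1491 bp in valleys (quartiles 1093 and 1893 bp), 1380 bp for summits flanked on 1 side and 2234 bp for covered summits (quartiles 1531 and 3202 bp). At 20-fold or more it was 1905 bp in valleys and 3484 bp over the 58 covered summits. Below 3-fold the medians were 259 bp in valleys and 274 bp for covered summits, a difference far smaller than either quartile range. The widest valley peak lay on chromosome 7 from 29159607 to 29169629, with 10023 bp, 32.8-fold, 110 reads and a valley of 1407 bp between flanks of 7.37-fold and 8.85-fold. The next, on chromosome 10 from 79532544 to 79540578, was 8035 bp wide at 18.9-fold, in a valley of 533 bp between flanks of 13.1-fold and 9.06-fold.

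The remaining peaks named for width had short valleys. The third, on chromosome 8 from 86259759 to 86266680, was 6922 bp wide, and its valley was as short as any at 197 bp, with the summit 11 bp from the left flank. The fourth lay on chromosome 3 from 87941120 to 87947650 (16.5-fold, valley of 701 bp, with a background of 1.39 times that of the genome). The fifth lay on chromosome 2 from 167598912 to 167605361 (32.5-fold, valley of 426 bp), as the highest of 37 peaks in its domain. Of the 5 widest valley peaks, 4 thus had a valley shorter than the median of 969 bp. These 5 do not stand for the whole list. Over all 5413 valley summits, wider peaks went with longer valleys (Spearman rho of 0.273).

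A valley usually held 1 acetylated summit. That was so in 4858 of the 5322 valleys, while 463 held 2 H3K27ac summits and 1 held 3. The 3 lay on chromosome 17 from 47824583 to 47826179, at 16.8-fold, 4.14-fold and 6.21-fold from left to right. The middle one alone met the rule on both sides. In the 91 valleys in which 2 summits met the rule, the summits were a median of 593 bp apart (quartiles 529 and 674 bp), with a median fold of 8.86 for the stronger and 5.61 for the weaker. Both reached 10-fold in 7 of these valleys. The strongest pair lay on chromosome 9 from 35018127 to 35019153, where peaks of 25.4-fold (85 reads) and 28.1-fold (94 reads) each ran out into the flank on their side. Other valleys with 2 strong summits, of which 1 met the rule, lay on chromosome 5 from 123299582 to 123300610 (19.8-fold and 22.8-fold), chromosome 7 from 26443249 to 26444789 (29.8-fold and 11.8-fold) and chromosome 2 from 93997299 to 93998690 (20.1-fold and 19.5-fold).

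Valley summits were spread over all 19 autosomes. They made up 5.85% of all autosomal H3K27ac summits, from 4.29% on chromosome 13 (187 of 4355, interval 3.71 to 4.94%) to 8.30% on chromosome 19 (242 of 2917, interval 7.32 to 9.36%). Chromosome 11 had the most (471, 7.10%) and chromosome 18 the fewest (137, 4.52%). The median fold varied less, from 8.57 on chromosome 13 to 10.3 on chromosome 18. The nearest other valley summit was a median of 54.0 kb away (quartiles 19.6 and 146.7 kb), and 436 (8.05%) had one within 5 kb.

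In windows of 100 kb, 3935 held at least 1 valley summit and 27 held 5 or more. The fullest window was on chromosome 10 from 80800001 to 80900000, with 9 valley summits among 33 H3K27ac summits, from 2.55-fold to 14.5-fold. It included a pair in 1 valley of 845 bp, from 80812749 to 80813094 (9.16-fold) and from 80813441 to 80813782 (6.21-fold). The window on chromosome 19 from 8900001 to 9000000 held 7 among 11 H3K27ac summits, with a median of 9.75-fold and the highest, 16.8-fold, from 8945298 to 8946928. The window on chromosome 8 from 119800001 to 119900000 also held 7, but among 55 H3K27ac summits and with none above 5.73-fold. The number at 10-fold or more was 2, 3 and 0 in these windows.

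The weakest valley summits had a raised local background by construction, since no summit held fewer than 8 reads and such a low fold then needs a high divisor. The lowest, on chromosome 3 from 103302275 to 103302921, had 2.24-fold with 15 reads at 2.58 times the genome-wide background. The next 3, at 2.26-fold with 13 reads and 2.18 times the background, lay on chromosome 12 from 4565310 to 4565530, chromosome 14 from 73468189 to 73468580 and chromosome 7 from 74792248 to 74792561. The fifth lay on chromosome 12 from 100786713 to 100786971 (2.38-fold, 16 reads, 2.58 times the background). None of these 5 was the highest of its domain. The valley on chromosome 7 also stood at the limit of the rule, since its right flank began 1000 bp from the summit.

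Summits just inside and just outside the limit of the rule had medians below that of all valley summits. Asking for H3K4me1 at 950 bp in place of 1 kb removed 367 summits with a median of 8.94-fold and added 405 with a median of 7.39-fold. At 1050 bp, 413 with a median of 8.57-fold were lost and 342 with a median of 8.997-fold were gained.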

How the data were processed

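The authors deposited 1 peak list per mark, each called on 1 library. Per the submitters' processing notes, the tools were Bowtie2 2.0.6 and MACS2 2.0.10.20131216 and the build was mm9. Read filters, caller options and the control are not given in the sources used here. Each deposited row holds the peak ends, the summit, the fold (a ratio of summit pileup to local background), −log10 p, −log10 q and a whole-number score, which was not used. The lowest deposited −log10 q is 1.30 for H3K27ac and 1.31 for H3K4me1.

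Reads at a summit were computed from fold and −log10 p, taking fold as (reads + 1)/(background + 1) and p as a Poisson tail. A whole number of reads returned the deposited −log10 p within 0.001 at all 93413 and 155027 summits. Summits were classified by H3K4me1 at 3 positions. Domains join H3K27ac peaks over gaps of up to 12500 bp, and the top 1% are ranked by acetylated length. Named sites are the 10 summits of highest fold, the 5 widest peaks, the 5 with the strongest weaker flank, the 5 of lowest fold, the 5 valleys with most summits (ties by summed fold) and the 3 fullest windows of 100 kb. The members, lists and comparisons were chosen with earlier results of these data known. The classification and the recovery of reads were tested on simulated data. No test was run, since there is 1 library per mark. Planned comparisons with gene starts, marker genes and sequence were not made, because no mm9 reference was used here. Computation used scipy 1.17.1, numpy 2.4.6 and pandas 2.3.3 under Python 3.11.15, and matplotlib 3.10.9 for the plots.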

Additional observations from a re-analysis of the deposited data

Results flagged for a closer look

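Chromosome X lies outside the rule used here, yet 51 of its 954 H3K27ac summits (5.35%, interval 4.01 to 6.97%) met the same 3 conditions on H3K4me1, where 5.85% of autosomal summits did. They had a median of 5.91-fold (quartiles 4.88 and 8.72), and 11 reached 10-fold. The strongest was 20.7-fold. None of the 4 H3K27ac summits on chromosome Y met them, and an exact interval over 4 summits reaches 60.2%.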

How the results depend on the processing

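The number of valley summits, their median H3K27ac fold and width, the median valley length and the median fold of the flanks were 5413, 9.38, 1067 bp, 969 bp and 5.75 as reported. Of 40 alternative values 20 moved, a count by more than 1.5 times and a median by leaving its exact 95% interval. Asking for H3K4me1 at 500 bp gave 2891 summits, 6.501-fold, 709 bp, 560 bp and flanks of 5.18-fold. At 1500 bp the fold was 8.86, the valley 1223 bp and the flanks 6.11-fold. These distances limit the valley length by construction. Widths and valleys were 1113 and 984 bp with H3K4me1 peaks of −log10 q at least 5, and 1122 and 983 bp (9.57-fold) with as many of the strongest H3K4me1 peaks as H3K27ac peaks. H3K27ac peaks of −log10 q at least 5 gave 10.6-fold, 1249 bp and 990 bp. Peak midpoints gave a width of 1156 bp. Summits at the genome-wide background alone, a setting chosen after seeing the data, gave 10.05-fold, 1106 bp and 981 bp. Joining H3K4me1 over 200 bp could change little, since no gap was under 197 bp. For the other changes the cause was not tested. The rank correlation of fold and valley length, recomputed in the 9 settings after seeing the data, ran from 0.196 (1500 bp) to 0.414 (500 bp). No paired analysis was possible because there was a single library of each mark, so no replicate could be left out either. Depth limits the valleys, since an H3K4me1 summit under 10 reads was never called.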
